A study of Mus musculus with 16 samples.

Results

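The suppressors of cytokine signalling are a family of 8 genes in the mouse, Socs1 to Socs7 and Cish, and all 8 were represented on the arrays by 14 probes on 23 spots. Members were taken by name, as every non-control probe whose gene name was one of these 8, and 7 of the 8 passed the signal filter and were among the 15875 genes tested. The proteins carry an SH2 domain, which binds phosphotyrosine on cytokine receptors and on the Janus kinases (JAKs), and a carboxy-terminal SOCS box, which recruits an ubiquitin ligase. Cytokines that signal through JAKs and the STAT transcription factors switch on Cish, Socs1 and Socs3, whose products then damp the same pathway, and Socs1 and Socs3 are also known as early genes of macrophages that meet bacterial products.

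RAW 264.7 cells, a mouse macrophage-like line that originated from a virus-induced tumour, were held in medium with reduced serum and then given either the solvent dimethyl sulphoxide (DMSO) or 20 µM cordycepin in DMSO. Cordycepin is an adenosine analogue that lacks the hydroxyl group needed to extend an RNA chain and is known as an inhibitor of polyadenylation. After 60 min, lipopolysaccharide (LPS), the bacterial ligand of Toll-like receptor 4, was added at 1 µg/ml for 60 min or was left out. The 4 conditions were therefore DMSO for 120 min, cordycepin for 120 min, LPS+DMSO and LPS+cordycepin, each in 4 biological replicates collected on 4 different days, so that all conditions shared the cell line, the low serum and the DMSO.

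RNA was labelled with Cy3 and read on 16 one-colour Agilent arrays. Between 21999 and 30362 of the 59305 non-control spots were well above background on an array (37.1% to 51.2%), and no spot was saturated. Replicates 1 and 2 lay on one slide (21999 to 26055 spots well above background) and replicates 3 and 4 on a second slide (27151 to 30362), and each slide held all 4 conditions. Of 10 macrophage markers, 9 were well above background on all 16 arrays (Mrc1 on 11), and their summed linear signal was 210528 to 322686 in DMSO and 310619 to 343268 in LPS+DMSO, against 291214 to 301797 in cordycepin and 292045 to 368289 in LPS+cordycepin. None of 7 fibroblast and epithelial markers was above background on all arrays and 4 were on none. Of 8 lymphocyte markers, Cd3e and Cd4 were above background on all arrays and 4 were on none. The summed lymphocyte list was 1422 to 1770 in DMSO, 1412 to 1870 in cordycepin, 1454 to 1801 in LPS+DMSO and 1342 to 3841 in LPS+cordycepin. Cd79a lay between 8.19 and 9.98 on the log2 scale in LPS+cordycepin. In LPS+DMSO it lay between 6.25 and 6.48, with 3 of 4 arrays above background. It passed the signal filter only through LPS+cordycepin, where it was highest, so no test of it is given. Cd3e and Cd4 also had their highest single arrays there, at 10.185 and 10.67. Whether this bears on the family's values was not tested.

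A gene's level is given here as its log2 scaled signal, which is the processed signal of its brightest probe after each array was set to a common upper quartile. A gene was called raised or lowered where limma's p, adjusted over all 15875 genes, was under 0.05 and the change was at least 2-fold. Levels are compared between conditions for 1 probe and never between genes, because probes differ in how brightly they read the same amount of RNA.

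Promoter sequences in the RefSeq table matched 4 of the 8 members, Cish, Socs1, Socs3 and Socs4. The 3 members that changed in any comparison are shown, because the results turn on them. Each line gives the 250 bases before the transcript start that the table lists (GRCm38.p6), with capitals at any match to a STAT element with a 3-base spacer (TTCNNNGAA), a STAT element with a 4-base spacer (TTCNNNNGAA) or a TATA box (TATAAA), read on both strands.
Socs3 (chr11:117969367-117969616, minus strand): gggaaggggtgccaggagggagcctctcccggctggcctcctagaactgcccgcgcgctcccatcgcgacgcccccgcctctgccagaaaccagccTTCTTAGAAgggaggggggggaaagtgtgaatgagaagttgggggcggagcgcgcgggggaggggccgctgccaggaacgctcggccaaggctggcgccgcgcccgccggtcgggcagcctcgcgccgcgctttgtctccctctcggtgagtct
Cish (chr9:107296409-107296658, plus strand): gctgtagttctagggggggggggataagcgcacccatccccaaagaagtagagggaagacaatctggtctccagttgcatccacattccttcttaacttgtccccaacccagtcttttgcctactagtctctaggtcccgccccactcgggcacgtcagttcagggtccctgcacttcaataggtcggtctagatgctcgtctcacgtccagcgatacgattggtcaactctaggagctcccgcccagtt
Socs1 (chr16:10785537-10785786, minus strand): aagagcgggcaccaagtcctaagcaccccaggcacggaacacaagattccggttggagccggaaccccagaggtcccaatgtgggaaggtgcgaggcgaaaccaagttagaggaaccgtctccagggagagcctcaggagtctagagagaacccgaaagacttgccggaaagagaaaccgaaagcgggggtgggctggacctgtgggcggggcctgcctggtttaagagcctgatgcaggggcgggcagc
The Socs3 window held 1 STAT element with a 3-base spacer, TTCTTAGAA, from base -154 to base -146 before the start. The same motif was found in 7.02% of all 32851 promoters of the table, the STAT element with a 4-base spacer in 5.85% and the TATA box in 12.37%. The windows of Cish, Socs1 and Socs4 held none of these motifs, and none of the 4 windows held the AP-1 element TGANTCA (6.75% of all promoters) or the NF-kB consensus (3.9%). A match of letters is a description of the window and not a binding site.

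**Figure D1:**
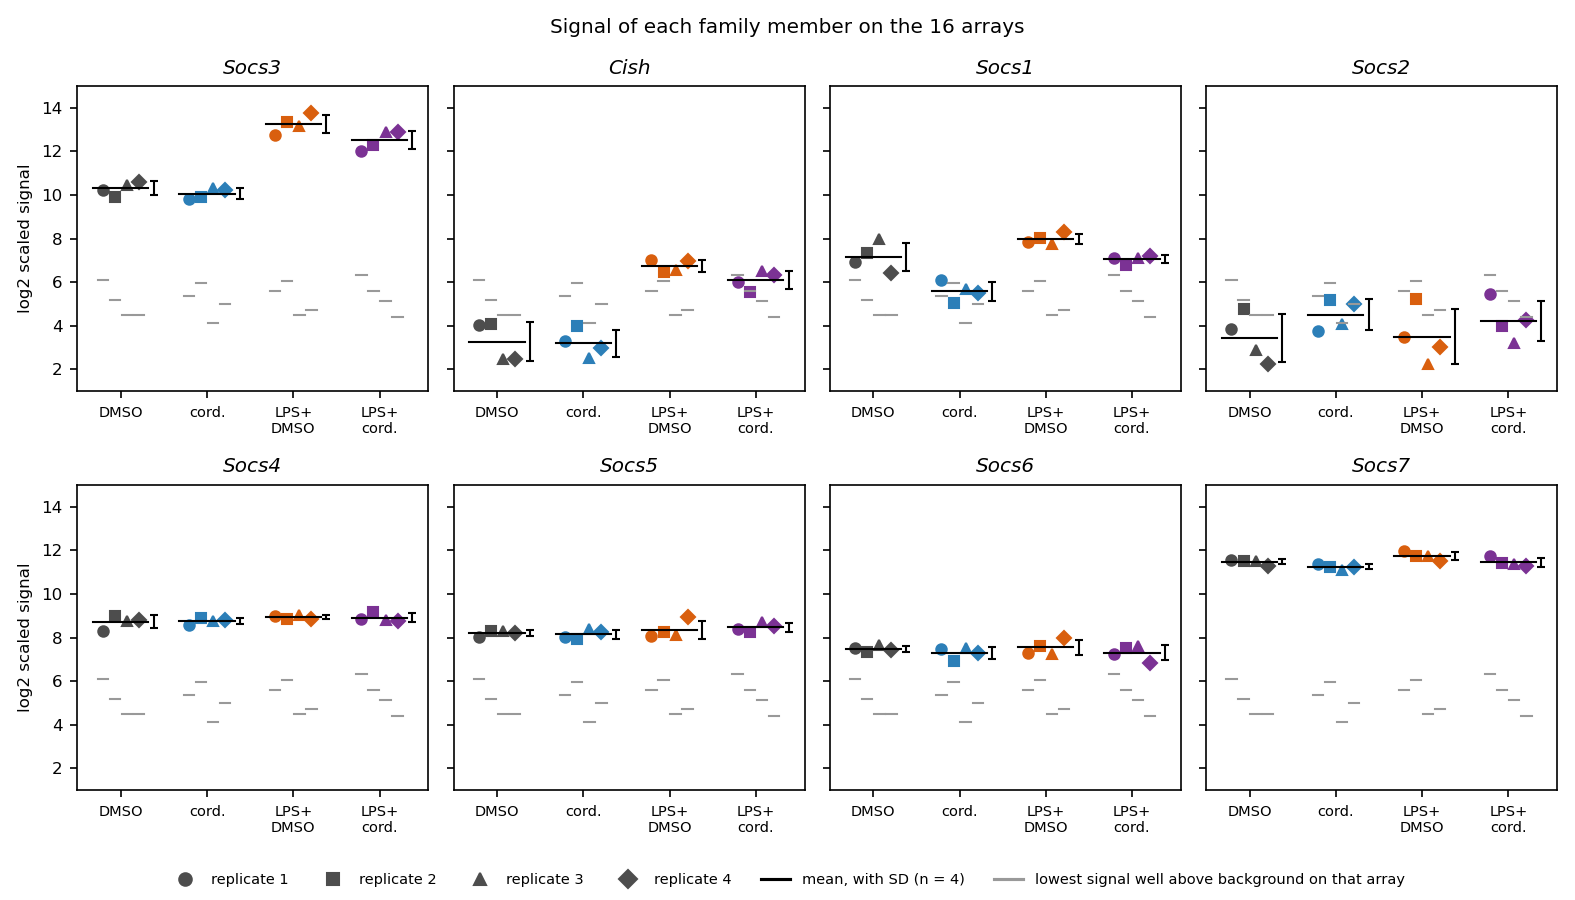
Log2 scaled signal of each family member (y axis) on the 16 arrays, by condition (x axis; cord., cordycepin). Symbols mark the replicates, black lines the mean with its SD (n = 4), and grey dashes the lowest signal that was well above background on that array; for Socs2 its brightest of 4 probes is drawn. Socs3 rose from a mean of 10.31 in DMSO to 13.25 in LPS+DMSO, Cish from below the grey dashes to 6.74, and Socs1 was lowest in cordycepin at 5.58, while Socs4 to Socs7 kept overlapping levels.

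One hour of LPS raised Socs3, and Cish was well above background only on arrays with LPS. Cordycepin alone lowered Socs1, which LPS then raised above its cordycepin level. Socs3 encodes the inhibitor that binds gp130 and related receptors and so limits signalling by interleukin 6, oncostatin M and G-CSF. Its probe lies at chr11:117827480-117827539 (mm9, minus strand; no annotation of that build was used here, so its place in the transcript is not given). In DMSO its log2 level in replicates 1 to 4 was 10.25, 9.92, 10.47 and 10.62 (mean 10.31 ± 0.30, SD, n = 4). In LPS+DMSO it was 12.75, 13.34, 13.17 and 13.76 (13.25 ± 0.42, n = 4). Every LPS+DMSO array was above every DMSO array. The rise was 7.67-fold (log2 change 2.94, SE 0.23, limma, adjusted p = 3.02e-07) and was seen on 4 of 4 days, with 2.96 on the log2 scale on the first slide and 2.92 on the second. It ranked 75 from the top among 15875 genes. Because each array measured the RNA of a whole well, a larger share of responding cells and more RNA per cell cannot be told apart.

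With cordycepin present, Socs3 was still raised by LPS. In cordycepin without LPS its level was 9.84, 9.89, 10.32 and 10.21 (10.06 ± 0.24, n = 4). In LPS+cordycepin it was 12.02, 12.31, 12.89 and 12.87 (12.52 ± 0.43, n = 4). The groups were apart on all arrays, and the rise was 5.50-fold (log2 change 2.46, SE 0.23, adjusted p = 3.79e-06), on 4 of 4 days. Against LPS+DMSO, LPS+cordycepin was lower by 0.73 on the log2 scale (1.66-fold, 95% interval -1.23 to -0.23, adjusted p = 0.0384). That difference passed the adjusted p but was under 2-fold, so it was not called. It was negative on each of the 4 days (-0.74, -1.03, -0.28 and -0.88), although the groups overlapped across days, because the 2 highest LPS+cordycepin arrays stood above the lowest LPS+DMSO array. Some alternatives gave a higher adjusted p, 0.0973 when the 8 arrays of these conditions were fitted alone and 0.118 with no filter on dim probes. After scaling to the spiked-in control probes it was 0.32. Over all 22 alternatives the change ranged from -0.89 to -0.63 and the adjusted p from 0.00189 to 0.32, and 1 alternative called it. Without LPS, cordycepin and DMSO did not differ detectably for Socs3 (log2 change -0.25, 95% interval -0.75 to 0.25, adjusted p = 0.555). Ordered by mean, LPS+DMSO was highest, then LPS+cordycepin, DMSO and cordycepin, and both neighbouring pairs that differed by cordycepin overlapped.

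Cish, the first member of the family to be described and an inhibitor of STAT5 signalling, was at the limit of the arrays. Its probe lies at chr9:107204196-107204255 (mm9, plus strand). It was not well above background on any of the 4 DMSO arrays (4.05, 4.07, 2.47 and 2.48) or of the 4 cordycepin arrays (3.28, 3.98, 2.52 and 2.98). On all 4 LPS+DMSO arrays it was well above background, at 6.99, 6.45, 6.54 and 6.96 (6.74 ± 0.28, n = 4). In LPS+cordycepin it was 6.01, 5.52, 6.49 and 6.32 (6.09 ± 0.43, n = 4) and was well above background on 2 of the 4 arrays, replicates 3 and 4. Signals below background have no measured level, so the change is a bound, taken against the higher of the probe's own signal and the lowest signal well above background on each dim array. By that bound LPS raised Cish at least 3.17-fold without cordycepin (limma fit on the measured signals, adjusted p = 1.34e-05). Cish passed the signal filter only through LPS+DMSO, the higher side of this comparison, so that p is no independent support for a rise. With background correction by normexp the change was 1.16 on the log2 scale, which is a smaller fold than that bound. Normexp was run with an added offset of 50, which makes log2 changes between dim signals smaller. With cordycepin no bound is given, because 2 of the 4 arrays with LPS and all 4 without it were not well above background. The fit on those signals was called (adjusted p = 0.00012), again for a gene tested only through LPS+DMSO, and the size of that rise was not measured. The dim arrays differed by slide, and without cordycepin the LPS change fitted to those dim signals was 2.66 on the log2 scale on the first slide and 4.27 on the second, both positive. With normexp the change with cordycepin was 0.82 on the log2 scale, under 2-fold. In LPS-treated cells cordycepin changed Cish by -0.65 on the log2 scale (95% interval -1.48 to 0.18, adjusted p = 0.316), negative on each of the 4 days, in a fit that includes the 2 dim arrays, and this difference did not pass.

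Socs1 encodes the inhibitor that blocks JAK kinase activity directly and is best known for restraining interferon signalling. Its probe lies at chr16:10783951-10784010 (mm9, minus strand). Its level in DMSO was 6.93, 7.33, 7.96 and 6.43 (7.16 ± 0.65, n = 4). In cordycepin it was 6.11, 5.04, 5.67 and 5.51 (5.58 ± 0.44, n = 4), and replicate 2 there was not well above background. The lowest DMSO array was above the highest cordycepin array. With cordycepin Socs1 fell by 1.58 on the log2 scale (3.00-fold, SE 0.27, limma, adjusted p = 0.000614). The change was negative on each of the 4 days, at -0.83, -2.30, -2.30 and -0.91, and was -1.56 on the first slide and -1.61 on the second. It was the 39th most negative of 15875 changes. The DMSO arrays of replicates 2 and 3 were the highest and those days had the larger falls. With normexp, whose added offset of 50 makes log2 changes between dim signals smaller, the change was -0.79, under 2-fold (adjusted p = 0.000999). When each gene was tested by its own spread, with no pooling across genes, the adjusted p was 0.055.

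With cordycepin present, LPS raised Socs1 to levels within the DMSO range. In LPS+cordycepin the level was 7.12, 6.79, 7.13 and 7.20 (7.06 ± 0.19, n = 4), above every cordycepin array and within the DMSO range. The rise was 2.79-fold (log2 change 1.48, SE 0.27, adjusted p = 0.00225), on 4 of 4 days. Scaled to the spiked-in control probes it was 1.16 on the log2 scale with an adjusted p of 0.158, with normexp 0.63, and in the authors' own values 0.99, and under each of these it was not called. In LPS+DMSO the level was 7.83, 8.02, 7.77 and 8.28 (7.97 ± 0.23, n = 4), which overlapped DMSO through the high replicate 3 of DMSO. The rise of 0.81 (1.75-fold, 95% interval 0.23 to 1.39) did not pass (adjusted p = 0.0601), being positive on 3 of 4 days. Without replicate 3 it was 1.15 and was called (adjusted p = 0.0276). That was the only call in 21 alternatives, over which the change ranged from 0.46 to 1.15 and the adjusted p from 0.0123 to 0.786. Within LPS-treated cells cordycepin gave a level 0.91 lower on the log2 scale (1.89-fold, SE 0.27, adjusted p = 0.027), negative on all 4 days and with no overlap between the groups. It was under 2-fold and so not called. Of 21 alternatives 5 called it, among them quantile normalization (-1.10), the upper quartile over all probes (-1.04) and the fit without replicate 3 (adjusted p = 0.0383). Over all 21 the change ranged from -1.10 to -0.74 and the adjusted p from 0.0014 to 0.14, so some did not pass the adjusted p either. Ordered by mean, LPS+DMSO was highest, then DMSO, LPS+cordycepin and cordycepin. DMSO overlapped both neighbours.

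**Figure D2:**
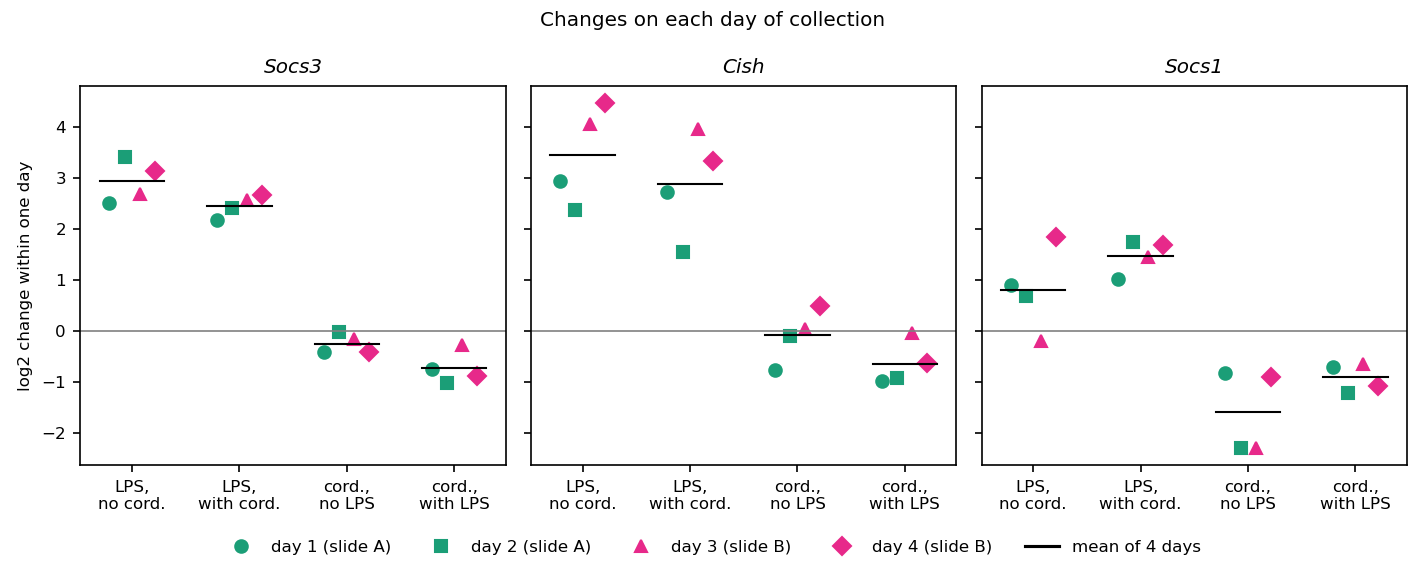
Log2 change of Socs3, Cish and Socs1 within each of the 4 days of collection (y axis), for the 4 comparisons named on the x axis (cord., cordycepin). Symbols are days, colours the 2 slides and black lines the mean over the days. Socs3 and Cish lay above 0 on every day with LPS, the Cish points being differences from signals below background, and Socs1 lay below 0 on every day with cordycepin, by -0.83 to -2.30 without LPS.

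Socs2, which limits growth hormone signalling and is known as a STAT5 target, was not measurable. It had 4 probes, 1 of them on 10 spots, and none of the 4 was well above background on any of the 16 arrays, so it was not tested. Their values lay between 2.23 and 5.43 in all conditions and carry no level. The values show only that the transcript was not detectable by these probes.

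The remaining 4 members carry long amino-terminal regions and act partly outside cytokine receptors, Socs4 and Socs5 on the epidermal growth factor receptor and Socs6 and Socs7 on insulin receptor signalling. All 4 were well above background on all 16 arrays, and none was called in any comparison. Without LPS, Socs4 had a mean of 8.72 ± 0.29 in DMSO and 8.75 ± 0.14 in cordycepin, and with LPS it had 8.93 ± 0.09 in DMSO and 8.91 ± 0.20 in cordycepin (SD, n = 4 each). Socs5 had 8.21 ± 0.14, 8.16 ± 0.21, 8.34 ± 0.40 and 8.46 ± 0.20 in the same order, with LPS+DMSO replicate 4 the highest single array at 8.93. These were overlapping sets of arrays in every comparison of either gene. The 95% interval of the LPS change was -0.08 to 0.51 for Socs4 and -0.23 to 0.50 for Socs5, so neither held a 2-fold change.

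The brightest Socs6 probe had means of 7.49 ± 0.14 in DMSO and 7.30 ± 0.27 in cordycepin, which with LPS were 7.54 ± 0.34 and 7.30 ± 0.35, and its groups overlapped in all comparisons. In LPS-treated cells the Socs6 change with cordycepin was -0.24 (95% interval -0.65 to 0.17), of which replicate 4 alone gave -1.16. Of 3 further Socs6 probes 2 were above background on some arrays and 1 on none, and all 3 fell under the filter. Socs7, whose changes had the smallest standard error of the 4 (0.12), was at 11.48 ± 0.12 in DMSO and 11.24 ± 0.11 in cordycepin, and with LPS at 11.74 ± 0.18 and 11.45 ± 0.21. Its LPS change was 0.26 (95% interval 0.01 to 0.51, adjusted p = 0.174) and its change with cordycepin in LPS-treated cells -0.29 (-0.54 to -0.04, adjusted p = 0.116). Both kept their sign on all 4 days and neither passed the adjusted p.

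**Figure D3:**
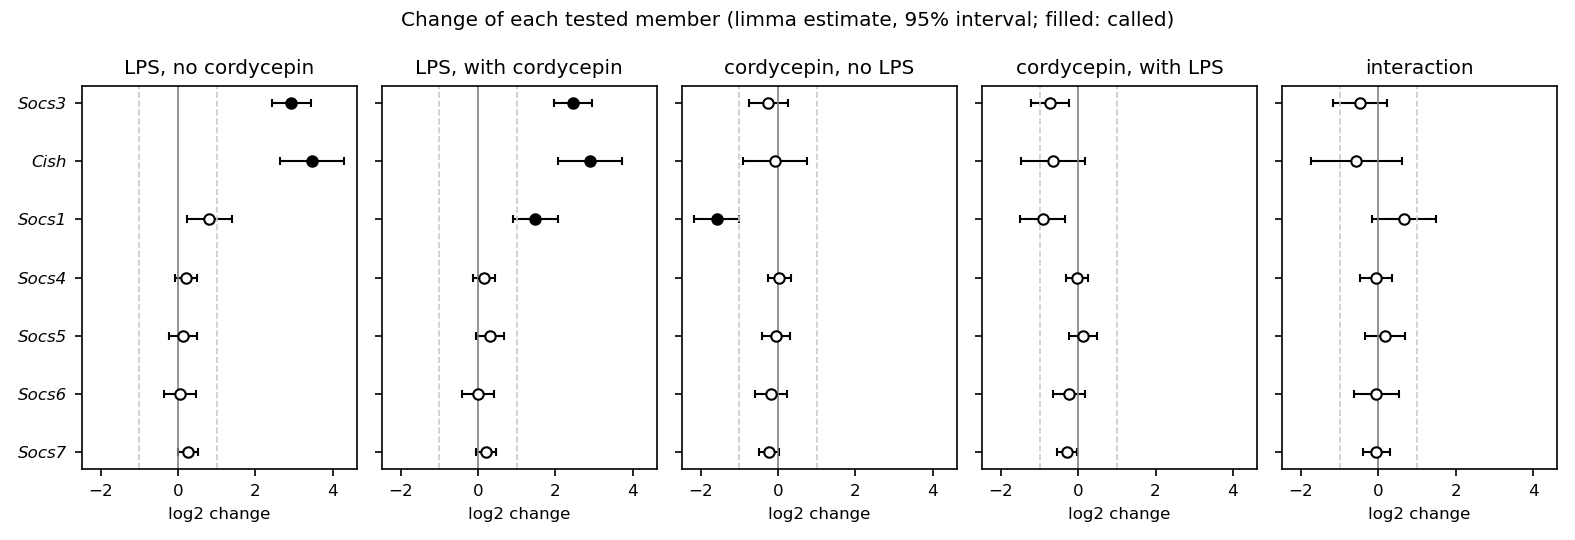
Log2 change of the 7 tested members (y axis) in the 5 comparisons, as limma's estimate with its 95% interval; filled circles were called, grey dashed lines mark a 2-fold change. Socs3 and Cish were called with LPS in both settings, Socs1 was called with LPS in the presence of cordycepin and with cordycepin in the absence of LPS, and no interaction was called. For Cish the drawn LPS changes are fitted to signals below background, so the one without cordycepin stands for a bound of at least 3.17-fold and the one with cordycepin has no measured size.

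Counted together, LPS without cordycepin raised 2 of the 7 tested members and lowered 0, where 2.09% of all 15875 genes were raised and 2.49% lowered. Cish passed the filter through the LPS+DMSO arrays alone, so it had to differ there to be tested at all, and Socs3 is the member raised that was measured in both conditions. With cordycepin present, LPS raised 3 of 7 (Socs1, Socs3 and Cish) and lowered 0, against 1.71% raised and 1.19% lowered of all genes. Of these, the call of Cish rests on signals not well above background on 6 of 8 arrays. Cordycepin without LPS lowered 1 of 7 (Socs1) and raised 0, against 1.07% lowered and 4.47% raised. Cordycepin in LPS-treated cells raised 0 and lowered 0 of 7 by limma's call, against 5.94% raised and 1.52% lowered of all genes. On the adjusted p alone, Socs1 and Socs3 were lower and no member was higher, where 8.36% of all genes were lower. The median log2 change of the 7 members, Cish at its fitted value, was 0.26 with LPS, where the median of all genes was -0.04. For cordycepin in LPS-treated cells the members' median was -0.29 against 0.04, and for cordycepin without LPS -0.19 against 0.03. The comparisons share arrays (DMSO serves both LPS and cordycepin without LPS, and LPS+DMSO both LPS and cordycepin with LPS), so their counts are not independent of each other.

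The interaction asks whether cordycepin changed the response to LPS, as the LPS change with cordycepin less that without. It was -0.48 on the log2 scale for Socs3 (95% interval -1.18 to 0.22, adjusted p = 0.88), -0.57 for Cish (-1.74 to 0.60, adjusted p = 0.93) and 0.67 for Socs1 (-0.15 to 1.49, adjusted p = 0.801). Limma called 0 of 7 members, where 0.359% of all genes were called either way. The Socs3 interval allows a response up to 1.18 lower on the log2 scale with cordycepin, and the Socs1 interval one up to 1.49 higher, so neither a smaller nor an equal response was shown. The Cish interaction is fitted mostly to signals not well above background. The LPS call of Socs1 in one setting and not in the other is therefore not a shown difference.

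The partners of the family were counted from 7 lists with 134 genes, of which 74 were tested. LPS raised 6 of them and lowered 1, where 2.09% of all genes were raised and 2.49% lowered. Cordycepin in LPS-treated cells raised 3 and lowered 5, against 5.94% and 1.52% of all genes. Cordycepin without LPS raised 4 and lowered 1, against 4.47% and 1.07%, and LPS with cordycepin raised 5 and lowered 1, against 1.71% and 1.19%. Il11, raised in both cordycepin comparisons, passed the filter only through arrays with cordycepin. Csf3, lowered by cordycepin in LPS-treated cells, passed it only through LPS+DMSO. Each was thus tested through the condition where it was high. Of 36 listed cytokine ligands that signal through JAKs 9 were tested, and of these LPS raised 4 and lowered 0. Of the 4, Ifnb1, Csf3 and Il6 passed the filter only through arrays with LPS, so their part in that count was fixed by the filter. For the same reason their adjusted p values with LPS are no independent support for a rise. Osm was measured in both conditions. Ifnb1, interferon beta, which signals to the STAT pathway that Socs1 restrains, lay between 2.37 and 6.40 in DMSO, where 1 of 4 arrays was above background, and between 11.54 and 11.91 in LPS+DMSO (adjusted p = 6.33e-07). Csf3, the G-CSF gene and a ligand whose receptor Socs3 binds, was below background on all DMSO arrays and reached 8.34 to 9.53, at least 12.5-fold higher (adjusted p = 3.79e-07). Osm, oncostatin M of the gp130 family, lay between 6.25 and 7.21 in DMSO and between 10.44 and 10.67 in LPS+DMSO (log2 change 4.00, adjusted p = 1.45e-09). Il6, the ligand most closely tied to Socs3, was called (adjusted p = 0.0201), but 1 of 4 DMSO arrays was above background, at 6.59, within the LPS+DMSO range of 5.64 to 7.28, so no size is given.

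In LPS-treated cells cordycepin lowered Csf3 (log2 change -1.84, adjusted p = 0.00776) and Osm (-1.29, adjusted p = 0.000168), on 4 of 4 days each, with Csf3 above background on 3 of 4 LPS+cordycepin arrays. Csf3 passed the filter only through LPS+DMSO, the higher side of this comparison, so its adjusted p is no independent support for a fall. Osm was above background on all arrays of both conditions. The changes that follow are also those with cordycepin in LPS-treated cells. Cordycepin raised Il11, a further gp130 ligand, by 3.00 (adjusted p = 8.59e-08) and Cntf, ciliary neurotrophic factor, by 1.91 (adjusted p = 1.46e-08). Both were also raised by cordycepin without LPS, Il11 by 1.77 and Cntf by 2.41. Il11 was above background on 2 of 4 arrays in each condition without cordycepin, so its sizes are fitted in part to dim signals. It passed the filter only through arrays with cordycepin, so its calls are no independent support for a rise. A second Cntf probe gave 1.95 with LPS and 2.19 without. Il6 was not above background on any LPS+cordycepin array, where LPS+DMSO was at least 2.31-fold higher, yet the fitted difference did not pass (adjusted p = 0.0651).

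Receptor subunits and the kinases and factors behind them follow. Of 20 tested receptor subunits LPS raised 1, Il10ra, the ligand-binding chain of the interleukin 10 receptor (log2 change 1.69, adjusted p = 4.38e-06). Cordycepin in LPS-treated cells lowered 3, Il12rb1 (-1.25, adjusted p = 1.43e-06), Il10ra (-1.09, adjusted p = 0.00019) and Il7r (-1.09, adjusted p = 4.05e-05), and raised 0. Without LPS, cordycepin lowered Il12rb1 as well (-1.80, adjusted p = 4.98e-08). Il7r was lower there but under 2-fold (-0.84, adjusted p = 0.000584), and Il10ra did not pass (-0.49, adjusted p = 0.0655). Of 5 tested STAT genes LPS lowered Stat2, a transcription factor of type I interferon signalling, which lay between 10.82 and 11.77 in DMSO and between 9.60 and 10.06 in LPS+DMSO (log2 change -1.27, adjusted p = 0.000178), and raised none, and with cordycepin present Stat2 fell by 1.09. All 4 JAK kinases were tested and none was called, with LPS changes of -0.35 to 0.19.

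The 9 genes of the SOCS-box ubiquitin ligase core and the 12 tested other negative regulators of the pathway were not called in any comparison. Of 15 other SOCS-box proteins, LPS raised Wsb1 by 1.12 (adjusted p = 0.00548) and cordycepin in LPS-treated cells raised Asb4 by 3.92 (adjusted p = 5.31e-10). Asb4 was raised by 4.24 without LPS as well, and its second probe gave 3.26 with LPS and 2.76 without. The SOCS box is all that ties these genes to the family, and neither carries its SH2 domain.

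**Figure D4:**
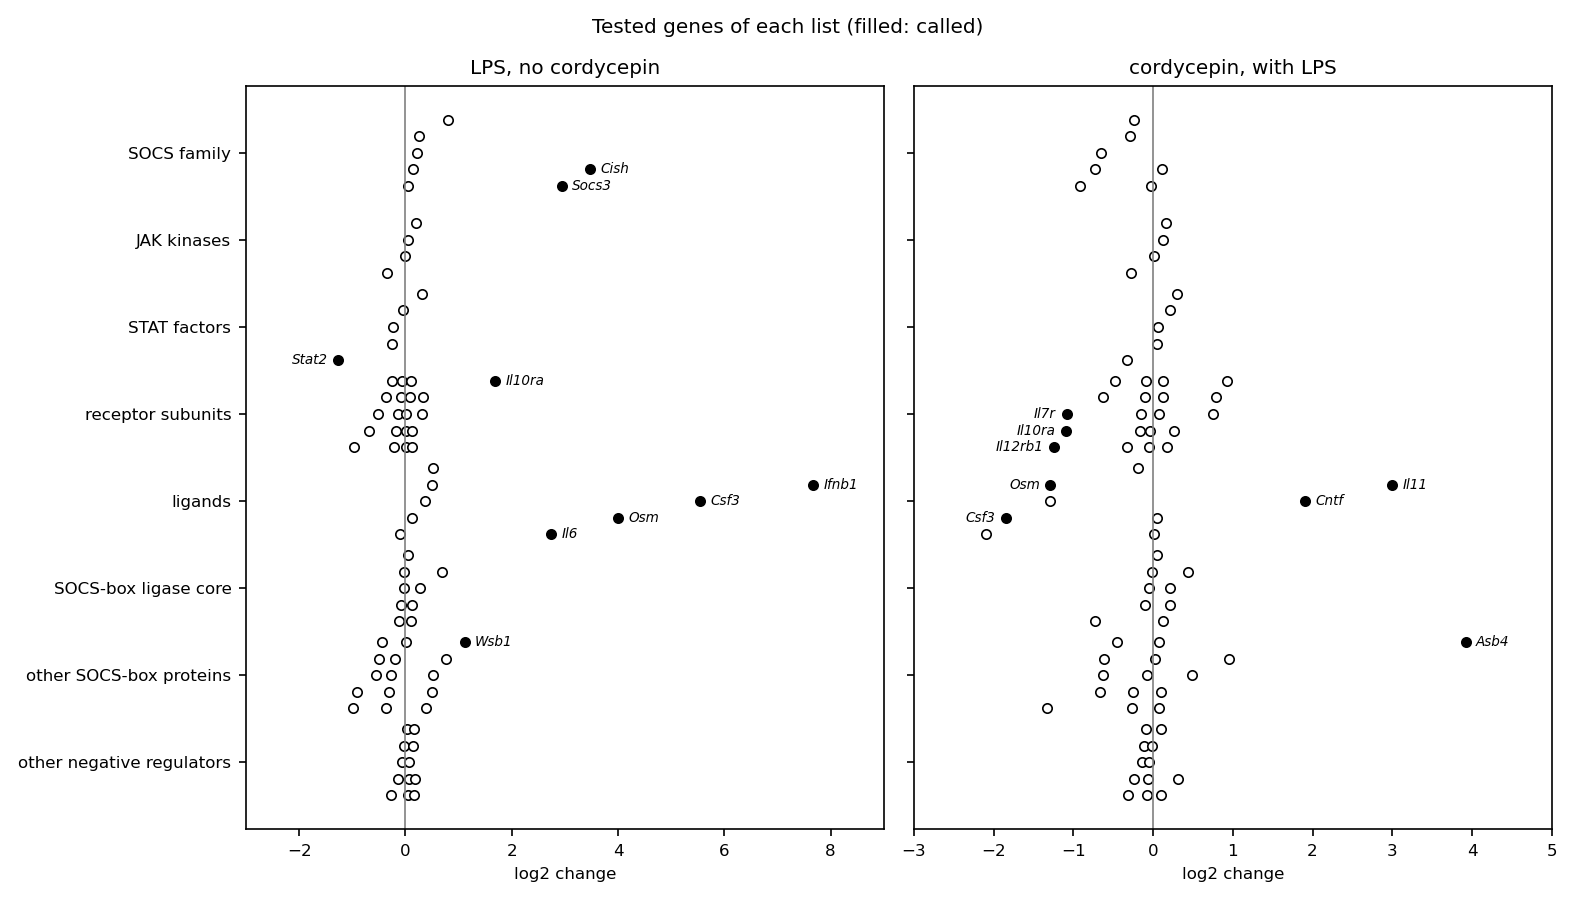
Log2 change (x axis) of each tested gene of the family and of the 7 partner lists (y axis), for LPS without cordycepin and for cordycepin in LPS-treated cells; each circle is 1 gene, spread vertically for legibility, and called genes are filled and named. With LPS, Osm lay at 4.00, while the positions of Ifnb1, Csf3, Il6 and Cish are fitted against DMSO signals mostly below background and have no order (Csf3, at least 12.5-fold). JAK kinases, the ligase core and the other negative regulators had no called gene in either panel. The panels share the LPS+DMSO arrays and have different x ranges.

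For each member that was called, the tested genes with the most similar log2 values over the 16 arrays were listed as a description. The arrays fall into 4 conditions, so these values mostly reflect the condition means. Socs3 was most like Csrnp1 (Pearson r = 0.985), Skil (0.985) and Btg2 (0.984). Cish was nearest to Csf3 (0.980), Ifnb1 (0.976) and Gpr84 (0.972), but Cish and Csf3 were above background on no array without LPS and Ifnb1 on 1 of 8, so these correlations rest largely on values without a measured level. Socs1 was most like Lats1 (0.932), Slc25a40 (0.930) and Pogz (0.928), whose changes with cordycepin without LPS were -0.52, -0.69 and -0.90. Within the family, Socs3 and Cish had r = 0.907, with the same limit for Cish, and Socs1 and Socs3 r = 0.694 over the same arrays.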

How the data were processed

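Total RNA of RAW 264.7 cells in 4 conditions with 4 replicates each was read on 16 one-colour Agilent arrays. The authors deposited 1 scanner file per array, with background-corrected processed intensity values from Agilent Feature Extraction (10.7.3.1 in the file headers and 10.10.1.1 in the submitters' processing notes), and a table of log2 values, used here only as an alternative, whose notes also name limma without a role. Its columns had medians of 9.55 to 9.58 and correlated at 0.995 or more with the log2 scanner values of the same arrays, so they are not centred by gene. Intensities of spots without outlier flags were taken as log2 and then averaged over the spots of each probe. Each array was set to a common 75th percentile over the 18148 probes that every array read well above background. The filter kept 21598 probes, those well above background on each of the 4 arrays of some condition, each gene was read from its brightest probe, and 15875 genes were tested, 11654 of them with a RefSeq symbol. Limma (3.58.1, R 4.3.3) fitted 4 condition means to all 16 arrays, with no term for day or slide. Calls used Benjamini-Hochberg adjustment, a threshold of 0.05 and a minimum change of 2-fold. The fit and its calls for LPS+DMSO against DMSO were tested on simulated data with known changes and no day or slide effects. The other steps were not tested in this way. Precision is limited by the number of arrays.

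The members and gene lists were chosen with earlier results of these data known. Partner genes were named where called with LPS or with cordycepin in LPS-treated cells, up to 4 per list and comparison by size, and similar genes as the 3 with the highest correlation. Alternatives covered scaling, background correction (normexp with an added offset of 50), filters, probe choice, blocks, thresholds and each replicate left out. The series' design gives the replicates different collection days, so the numbers pair the arrays. Deviations from the condition means correlated at a mean r of 0.197 for the same number (-0.059 to 0.44, over 0.1 in 20 of 24 pairs), 0.176 for the other number on the same slide and -0.187 across slides. Promoters came from a RefSeq table of GRCm38.p6 and probe positions from the array files (mm9). Python 3.11.15, pandas 2.3.3 and matplotlib 3.10.9 were used.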

Additional observations from a re-analysis of the deposited data

How the results depend on the processing

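The 35 member changes were recomputed under up to 22 alternatives, 734 values in all. Of these, 719 kept their direction where called and their side of the threshold, 6 lost the call, 9 gained it and 0 reversed. The LPS call of Socs3 held in all, with log2 changes of 2.78 to 3.08, and its call with cordycepin present held at 2.14 to 2.55. With LPS, 1 member was called in the authors' values and 1 with probes above background on all arrays, because Cish has no value there; the partner lists gave 4 called genes in the authors' values. For cordycepin in LPS-treated cells 1 member (Socs1) was called with quantile normalization and 1 with the 75th percentile over all probes. There 2 passed with no minimum fold, and 2 by the methods' t-test, which takes each gene's own spread, unadjusted. Leaving out each replicate gave 0 to 1. For cordycepin without LPS, 0 members were called with normexp, 0 with probes above background on all arrays, which drops Socs1, 0 by the methods' t-test adjusted and 2 unadjusted. The share of all genes passing the unadjusted test is not given, so the unadjusted counts have no background to be read against. The partner lists there gave 3 with normexp. For LPS with cordycepin, 1 member was called with normexp, 1 in the authors' values and 1 with probes above background on all arrays. For the interaction the partner lists gave 1 call with quantile normalization, 2 with normexp and 0 to 1 with a replicate left out. Causes other than those named were not tested. Against spiked-in probes the median of all genes shifted to -0.36 for LPS with cordycepin, -0.14 for LPS and -0.12 for cordycepin in LPS-treated cells, from -0.04, -0.04 and 0.04.

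The replicate block changed no call of a member. With it the members called were 2 for LPS, 0 for cordycepin with LPS, 1 for cordycepin without LPS, 3 for LPS with cordycepin and 0 for the interaction, and the interaction calls over all genes rose from 57 to 109. Signal over background limits Cish, Socs2 and Socs1 in cordycepin, and 4 arrays per condition leave intervals of about 0.5 on the log2 scale to either side for Socs3.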
